A study of Homo sapiens with 2 samples.

Results

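The genes described are the collagen alpha chains and the enzymes that modify and cross-link collagen, measured in RNA that had been precipitated with anti-Ago2 antibody out of A549, a long-established cell line of human lung adenocarcinoma. Ago2 (Argonaute2) is the protein that loads microRNAs. Members were taken by symbol from the array's annotation: every gene named COL, digits, A and a digit, together with LOX, LOXL1 to LOXL4, PLOD1 to PLOD3, P4HA1 to P4HA3 and SERPINH1. This gave 55 genes, 43 collagen chains and 12 enzymes, of 18417 genes measured through probe sets with 1 symbol. COL17A1 was not analysed here. The control group was A549 that received an empty vector, and the test group was A549 overexpressing miR-130b, both after the Ago2 precipitation, with 1 array each and no further allele or agent in the labels. The labels do not say how miR-130b was delivered or for how long.

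With 1 array per group there was no replicate error, and no value below has a test. Every value is a log2 expression value, and every difference is the miR-130b value minus the empty-vector value. Where a gene at or above the level filter described below had several different probe sets, their differences varied with a pooled SD of 0.16 (356 genes). A difference is called larger than the probe spread below when it reached 2 such SDs (0.33), which says nothing of how cultures or pull-downs vary. The same cut was used for members below that filter, where this SD was not measured. A gap between the differences of 2 genes varies more than 1 difference, so gaps in probe SDs are not judged by this cut. Input RNA was not analysed here, so the amount of an mRNA and its share bound to Ago2 cannot be told apart, nor can fewer cells that hold it and less of it per cell. Levels of different genes come from different probes and are not ranked against each other.

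Collagens are trimers of alpha chains wound into a triple helix. Fibrillar chains form the tension-bearing fibrils of connective tissue, type IV chains form the sheet of basement membranes under epithelia, and the remaining types decorate fibrils, anchor membranes or span the cell surface. In the endoplasmic reticulum, prolyl 4-hydroxylases and lysyl hydroxylases (the PLOD enzymes) modify the chains and the chaperone HSP47 (SERPINH1) holds the folded helix. Outside the cell, lysyl oxidases start the cross-links that stiffen the matrix. A microRNA in Ago2 pairs with its mRNAs mainly through its seed, bases 2 to 8.

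The gene of miR-130b gives a mature microRNA from each arm of its hairpin, and the labels do not name the arm. Both are shown because the seed is the part through which Ago2 would hold an mRNA. They are from RefSeq (GRCh38.p14), written from the 5′ end with the seed in capitals, and lie on the plus strand at chr22:21653354-21653375 and chr22:21653316-21653336.
hsa-miR-130b-3p: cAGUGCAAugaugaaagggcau
hsa-miR-130b-5p: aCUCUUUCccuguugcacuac
The 3p seed is shared with hsa-miR-301a-3p, hsa-miR-301b-3p and hsa-miR-454-3p, which may not be all the microRNAs that have it. The probe set of MIR130B stood at 6.66 with the empty vector and at 12.64 with miR-130b, in the direction of the labels. Transcript sequences were not used here, so seed matches in collagen mRNAs were not searched.

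Most collagen mRNAs were slightly more abundant in the Ago2 precipitate with miR-130b, and a few chains of types IV, V and VI stood well above the rest. P4HA3, a prolyl 4-hydroxylase subunit, and COL4A6, a basement membrane chain, were at least 2-fold higher, which was 2 of 55 members beside 1.06% of all genes. LOX, the founding lysyl oxidase, was the 1 member at least 2-fold lower, beside 1.37% of all genes. At a threshold of 1.5-fold, COL5A1, COL6A1, COL4A5 and COL5A2 joined the higher members, 6 in all beside 3.65% of all genes. The anchoring fibril chain COL7A1 joined LOX among the lower members, 2 in all beside 4.65% of all genes.

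Of the 55 members, 44 were higher with miR-130b, 10 were lower and 1, COL4A3, had the same value on both arrays, while 58.6% of all genes were higher. The members' median difference was 0.15 and that of all genes 0.05. Over the 43 chains the median was 0.16, with 36 higher and 6 lower. Much of this shift lay within the probe spread: 43 of the 55 members differed by less than it, 10 were above it and 2 below, beside 11.8% and 11.6% of all genes.

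These counts were also split by the level of the members. A mean level over both arrays of 8.64, the median of all gene means, was used as a filter on low values. It was reached by 24 members, 15 chains and 9 enzymes, and missed by 31. All genes below the filter had a median difference of 0.08, with 65.6% of them higher, whereas genes at or above it had a median of 0.01 and 51.5% were higher. Of the 31 members below it 24 were higher (77.4%), with a median of 0.14. Of the 24 members at or above it 20 were higher (83.3%), with a median of 0.17. On low signals the array background adds to both values and shrinks differences. As a reference for low signals, 95% of 361 olfactory receptor genes lay below 7.16 with the empty vector and below 7.23 with miR-130b, and 9 chains were under both values: COL24A1, COL6A3, COL6A5, COL6A6, COL8A1, COL10A1, COL14A1, COL19A1 and COL28A1. Just under the filter lay COL26A1 (mean 8.43) and COL16A1 (8.33), and just over it COL23A1 (8.85) and COL9A3 (8.88).

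**Figure D1:**
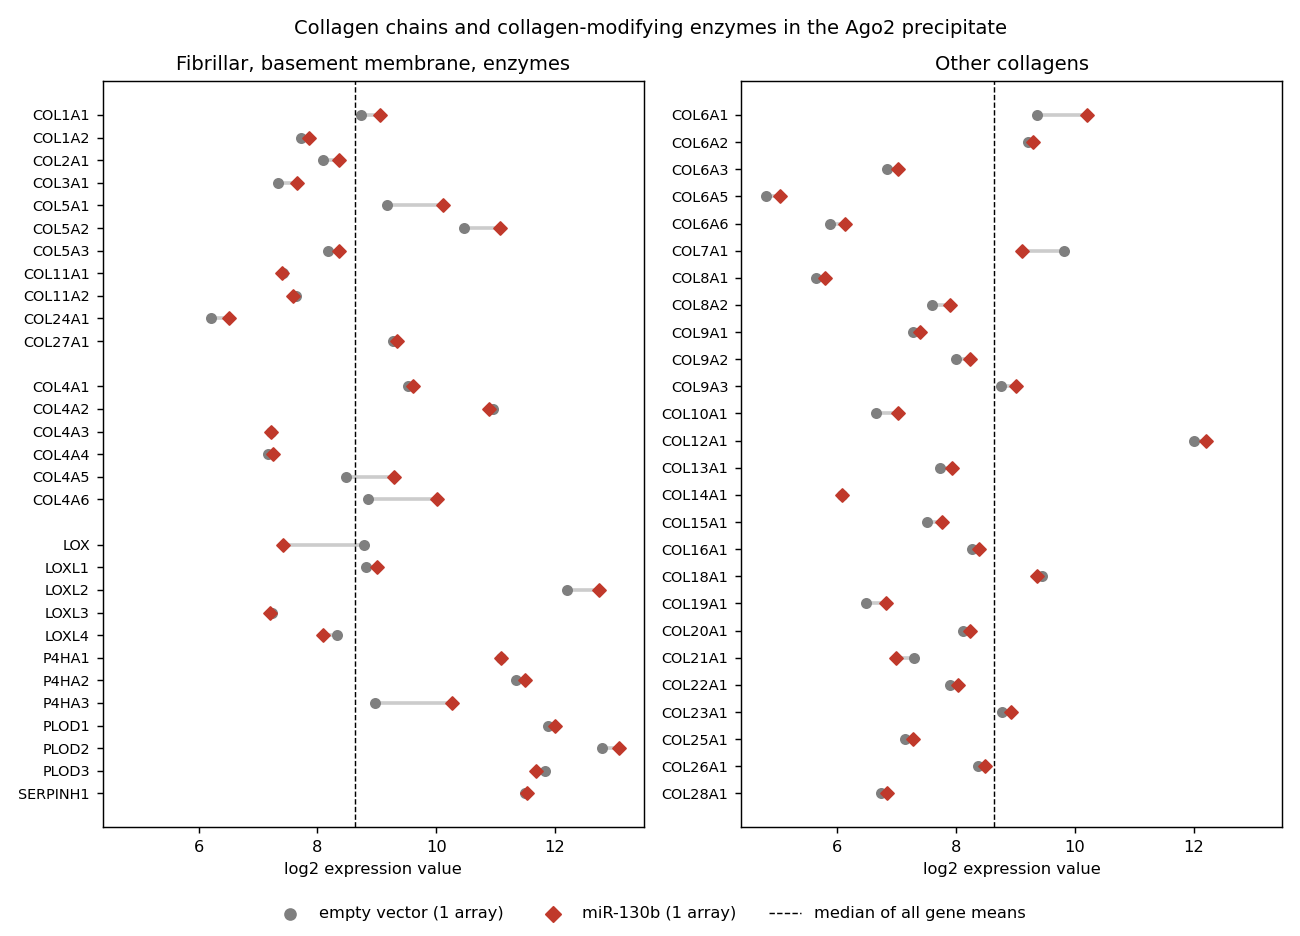
Log2 expression value (x axis) of each of the 55 members on the empty-vector array (grey circles) and the miR-130b array (red diamonds), 1 array each, with the filter on low values as a dashed line. The longest lines belong to LOX, which ran from 8.79 down to 7.41, and to P4HA3 and COL4A6, which ran upward to 10.27 and 10.005.

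Among the fibrillar chains, COL5A1 and COL5A2 of type V had the largest differences between the arrays. Type V collagen sits inside type I fibrils and sets their diameter. COL5A1 stood at 9.16 on the empty-vector array and at 10.11 on the miR-130b array. Its difference was 0.95 (1.93-fold higher), which lies above 98.4% of the genes that passed the filter. COL5A2, its usual partner chain, stood at 10.47 and 11.07, a difference of 0.60 (1.52-fold). The rarer chain COL5A3 went from 8.18 to 8.35 and was below the filter. The difference of COL5A1 therefore exceeded that of COL5A3 by 0.78, or 4.77 probe SDs, and that of COL5A2 by 0.35, or 2.16 probe SDs. Neither gap is called larger than the probe spread, since that SD is of 1 difference.

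The chains of type I, the main collagen of bone, skin and scar, showed smaller differences. COL1A1 went from 8.74 to 9.05, a difference of 0.32 that is within the probe spread. COL1A2, below the filter, went from 7.72 to 7.86. COL3A1, the type III chain of extensible tissues, went from 7.34 to 7.66, a difference of 0.33 at the edge of the probe spread. It is the genomic neighbour of COL5A2 in the RefSeq table.

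The other fibrillar chains did not exceed the probe spread. COL27A1, a cartilage-associated chain, passed the filter at 9.28 and 9.34, and its difference of 0.07 fell to 0.01 once the median of all genes was subtracted. The cartilage chain COL2A1 went from 8.09 to 8.36 and COL24A1 from 6.21 to 6.51. COL11A1 (7.42 and 7.41) and COL11A2 (7.63 and 7.59), the type XI chains of cartilage, were the 2 fibrillar chains that were lower. COL11A2 was the 1 member with several probe sets, and they disagreed in sign, at 0.14 for 1 probe set and -0.13 for the other 2, which hold the same values. It counts as lower because all of them were averaged, whereas its brightest probe set was higher. A probe set shared by COL1A2 and PNLIP, at 4.64 and 4.71, was left out because it names several genes. With probe sets averaged, 9 of 11 fibrillar chains were higher, with a median of 0.27, while 58.6% of all genes were higher.

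Among the basement membrane chains, COL4A6 and COL4A5, whose genes form a pair, were higher by more than the probe spread. Type IV chains are encoded in pairs of genes that lie head to head and are read outward from a shared start region, and the chains of a pair assemble in the same trimers. COL4A6 went from 8.85 with the empty vector to 10.005 with miR-130b, a difference of 1.16 (2.23-fold higher), above 99.2% of genes that passed the filter. Its pair partner COL4A5 went from 8.48 to 9.30, a difference of 0.81 (1.76-fold), above 97.5% of them. Its empty-vector value is below the filter, so it passed through the array on which it was high. The difference of COL4A6 exceeded that of COL4A5 by 0.35, or 2.13 probe SDs. As that SD is of 1 difference, this gap is not called larger than the probe spread. Both genes lie on the X chromosome.

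In contrast, the classical and ubiquitous pair differed by less than the probe spread and in opposite directions. COL4A1 went from 9.52 to 9.61 and COL4A2 from 10.96 to 10.89, differences of 0.09 and -0.07. The pair COL4A3 and COL4A4, best known from the kidney filter and also part of the alveolar membrane, was below the filter. COL4A3 was at 7.22 on both arrays, as were 152 genes in all with equal values, and COL4A4 was at 7.17 and 7.24. The median over the 6 type IV chains, 0.08, lies among the values of these 4 chains, and COL4A5 and COL4A6 lie apart from it. The mean of all 6 was 0.34. Over the 4 chains that passed the filter the median was 0.45, which is partly set by the filter, since it keeps COL4A5 through its miR-130b value.

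Bases between the starts of each pair are shown, for COL4A5 and COL4A3 only the last 250 before the start. Whether they bear on the differences was not tested. RefSeq places the start of COL4A2 127 bases from that of COL4A1, the start of COL4A3 419 bases from that of COL4A4, and the start of COL4A5 380 or 1416 bases from the starts given for COL4A6. Each sequence ends just before the start of the gene named, on its plus strand, and lies wholly between the starts. The first is chrX:108439588-108439837, the second chr2:227164374-227164623 and the third, cut short by the start of COL4A1, chr13:110307158-110307283 (GRCh38.p14). Capitals mark exact matches, on either strand, to 4 motifs that do not overlap in these stretches. The GC box was searched as GGGCGG and the CCAAT box by the letters of its name. The TATA box was searched as TATAAA, and the site of the AP-1 factor as TGANTCA.
COL4A5: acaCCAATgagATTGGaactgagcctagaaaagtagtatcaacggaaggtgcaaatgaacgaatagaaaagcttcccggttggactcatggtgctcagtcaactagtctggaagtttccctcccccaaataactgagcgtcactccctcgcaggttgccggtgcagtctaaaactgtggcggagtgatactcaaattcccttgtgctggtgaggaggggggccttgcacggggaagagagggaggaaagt
COL4A3: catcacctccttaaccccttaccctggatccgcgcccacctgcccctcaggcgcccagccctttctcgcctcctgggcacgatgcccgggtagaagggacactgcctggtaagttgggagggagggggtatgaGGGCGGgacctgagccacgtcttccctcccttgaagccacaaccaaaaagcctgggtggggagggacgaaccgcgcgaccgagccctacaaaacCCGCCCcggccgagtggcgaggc
COL4A2: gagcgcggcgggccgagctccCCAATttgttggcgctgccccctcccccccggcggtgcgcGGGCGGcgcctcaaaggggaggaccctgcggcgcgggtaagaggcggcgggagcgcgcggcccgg
The COL4A5 stretch held 2 CCAAT matches and no GC box, and its GC content was 51.2%. The COL4A3 stretch held 2 GC boxes and no CCAAT, at 66.4% GC. The 126 bases between COL4A1 and COL4A2 held 1 of each, at 80.2% GC. None of the 3 held a TATA or AP-1 match. The first 2 stretches cover only part of the bases between the starts. Of the windows before the COL4A6 starts, 1 held 3 CCAAT matches and no GC box. The other held 1 GC box and no CCAAT.

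These letters are common near gene starts. Over the 250 bases before each of 35116 RefSeq starts, 42.6% of windows held a GC box, 32.01% a CCAAT box, 10.7% a TATA box and 6.57% an AP-1 match, with a median GC content of 58.0%. The starts of 41 members were in the table, in 57 windows, some of which overlap. Of these, 54.4% held a GC box, 26.3% a CCAAT box, 14.0% a TATA box and 1.75% an AP-1 match, with a median GC content of 65.6%. In the type IV genes 4 of 7 windows held a CCAAT box, and 0 of 7 a TATA box. The 7 collagen windows with a TATA box all belonged to chains outside the fibrillar and type IV classes. However, only 6 of the 11 fibrillar genes had a window. COL1A1, COL1A2, COL2A1, COL3A1 and COL5A2 had none, so nothing is said of their starts.

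**Figure D2:**
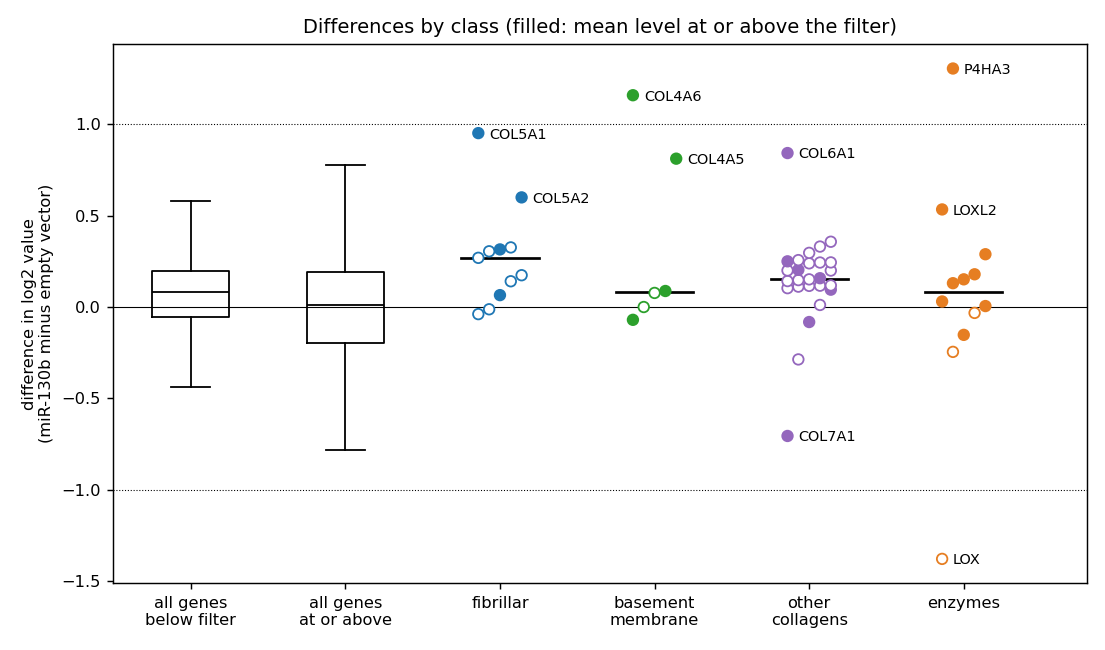
Difference in log2 value (y axis, miR-130b minus empty vector) for all genes below and at or above the filter (boxes show quartiles and the median, whiskers reach the farthest gene within 1.5 box lengths, points beyond are not drawn) and for each member by class, with class medians as bars and dotted lines at 2-fold. The class medians lie between 0.08 and 0.27, and single chains such as COL4A6, COL5A1 and COL6A1 stand well above them.

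Of the 26 other collagens 23 were higher, beside 58.6% of all genes. Below the filter lay 19 of the 26, and 65.6% of all genes below it were higher. By more than the probe spread 3 were higher (COL6A1, COL10A1 and COL19A1), beside 11.8% of all genes. Of these, COL10A1 and COL19A1 lay in the range of olfactory receptor genes. Type VI collagen forms beaded filaments at the cell surface of many tissues from chains of COL6A1, COL6A2 and COL6A3. COL6A1 went from 9.36 with the empty vector to 10.20 with miR-130b, a difference of 0.84 (1.79-fold higher), above 97.7% of genes that passed the filter. COL6A2, its neighbour in the genome, went from 9.21 to 9.30, a difference of 0.09. COL6A3 was at 6.83 and 7.03, within the range of olfactory receptor genes. The difference of COL6A1 exceeded that of COL6A2 by 0.75, or 4.58 probe SDs. As that SD is of 1 difference, this gap is not called larger than the probe spread. Taken singly, the difference of COL6A1 exceeded the probe spread and that of COL6A2 did not. COL6A5 and COL6A6 were also in that range, with differences of 0.24 and 0.26.

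COL7A1 was the 1 collagen chain lower by more than the probe spread. It encodes the anchoring fibril that fastens the basement membrane of stratified epithelia to the tissue below. It stood at 9.81 on the empty-vector array and 9.11 on the miR-130b array. Its difference was -0.71 (1.63-fold lower), and 4.09% of the genes that passed the filter had a lower difference. COL18A1, the source of endostatin and a basement membrane component, went from 9.44 to 9.36, a difference of -0.08. The related COL15A1 was below the filter, with a difference of 0.24.

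Chains that decorate fibrils mostly lay within the probe spread, with COL19A1 the exception. COL12A1, a fibril-associated chain of dense tissues, stood at 12.003 and 12.21, a difference of 0.20. COL9A3 went from 8.76 to 9.01, a difference of 0.25, and its partner COL9A2, below the filter, differed by 0.24. COL9A1, the remaining chain of that trimer, differed by 0.12. Of the 10 fibril-associated chains 9 were higher, beside 58.6% of all genes. Their median was 0.13, with a range from -0.29 for COL21A1 to 0.33 for COL19A1. COL14A1, COL16A1, COL20A1 and COL22A1 lay between, at 0.01 to 0.15, all below the filter.

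Of the remaining chains, 1 passed the filter. COL23A1, a transmembrane collagen, had values of 8.77 and 8.93. The transmembrane chains COL13A1 and COL25A1 were below it, with differences of 0.20 and 0.14. The network-forming chains COL8A1, COL8A2 and COL10A1 differed by 0.15, 0.30 and 0.36, the last at 6.66 and 7.01, within the range of olfactory receptor genes. COL26A1 and COL28A1 differed by 0.11 and 0.10.

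Among the enzymes, 1 prolyl 4-hydroxylase subunit and 2 lysyl oxidases differed by more than the probe spread. Prolyl 4-hydroxylase alpha subunits make the hydroxyproline that keeps the helix stable at body temperature. P4HA3 went from 8.97 with the empty vector to 10.27 with miR-130b, which is a difference of 1.31 (2.47-fold higher), above 99.5% of genes that passed the filter. P4HA1, the main subunit in most cells, was at 11.09 and 11.10, a difference of 0.01 that became -0.05 once the median of all genes was subtracted. P4HA2 went from 11.34 to 11.49. The difference exceeded the probe spread in 1 of 3 subunits.

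Lysyl oxidases went in both directions. LOX went from 8.79 with the empty vector to 7.41 with miR-130b, a difference of -1.38 (2.60-fold lower), and 0.64% of the genes that passed the filter had a lower difference. Its mean was below the filter and it was the 1 member above the filter value on 1 array and with a mean below it. The miR-130b value of LOX lies close to the upper range of olfactory receptor genes, so the fold may be understated. LOXL2, a relative that also oxidizes collagen IV, went from 12.20 to 12.73, a difference of 0.53 (1.45-fold higher). LOXL1, linked to elastic fibres, passed the filter at 8.82 and 9.002. LOXL3 (7.24 and 7.21) and LOXL4 (8.34 and 8.09) were below it, both slightly lower. Of 5 lysyl oxidases, 2 were higher and 3 lower.

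Lysyl hydroxylases and HSP47 stayed within the probe spread. PLOD2, which hydroxylates telopeptide lysines and so shapes the cross-links, went from 12.79 to 13.08, a difference of 0.29. PLOD1, which hydroxylates lysines of the helix, went from 11.88 to 12.01. PLOD3, which also adds sugars to collagen, went from 11.83 to 11.67, a difference of -0.15. SERPINH1 was at 11.50 and 11.53, and its difference of 0.03 became -0.02 once the median of all genes was subtracted. Over the 12 enzymes 8 were higher and 4 lower, beside 58.6% and 40.6% of all genes. Their median was 0.08, with a range from -1.38 to 1.31.

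**Figure D3:**
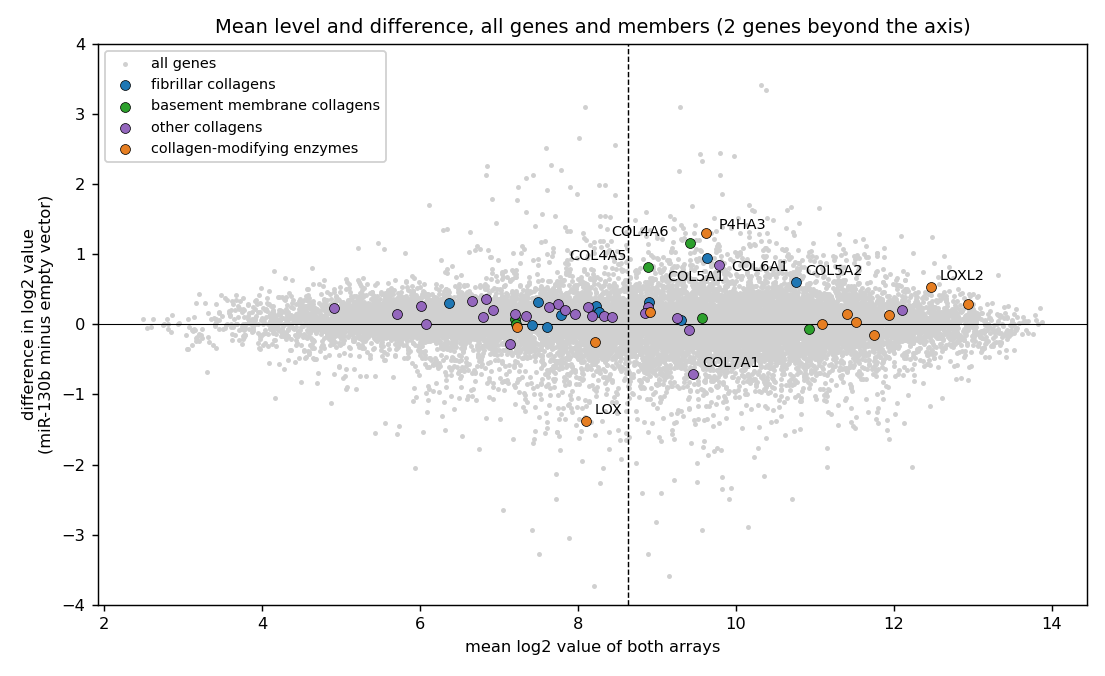
Mean log2 value over both arrays (x axis) against the difference in log2 value (y axis, miR-130b minus empty vector) for 18417 genes (grey) and the members by class (colours), with the filter as a dashed line. Of the 31 members below the filter 24 lie above 0, beside 65.6% of all genes below it. Apart from LOX these 31 members run from -0.29 to 0.36. The labelled members, more than 0.5 apart, lie at or above the filter, except LOX.

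Compared by class, the median difference was 0.27 for fibrillar chains, 0.08 for type IV chains, 0.15 for the other chains and 0.08 for the enzymes, beside 0.05 for all genes. These classes overlapped widely: the fibrillar chains ran from -0.04 to 0.95, the type IV chains from -0.07 to 1.16 and the other chains from -0.71 to 0.84. With 1 array a group the differences between classes were not tested. Adding COL7A1, COL15A1 and COL18A1, which lie at basement membranes, to the type IV chains left a median of 0.08 over 9 chains.

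Genes that act on collagen before and after secretion were described through lists of partners. Of 12 measured partners for folding and modification in the endoplasmic reticulum 8 were lower and 4 higher, with a median of -0.24 and none 2-fold apart, while 40.6% of all genes, and 48.4% of those at or above the filter, were lower. Most lay within the probe spread (8 of 12), 3 were lower by more than it and 1 was higher, beside 11.6% and 11.8% of all genes. FKBP14, a prolyl isomerase, went from 10.80 to 9.95, a difference of -0.85, and COLGALT1, which adds galactose to collagen, went from 11.34 to 11.61. P4HB, the beta subunit of prolyl 4-hydroxylase, went from 13.48 to 13.23.

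Of 9 genes for the export of procollagen from the endoplasmic reticulum 8 were lower, beside 40.6% of all genes, with a median of -0.45. By more than the probe spread 6 were lower, beside 11.6% of all genes. SEC24D, a cargo adaptor of the coat that carries procollagen, went from 12.39 to 11.20 (2.28-fold lower). MIA3, the receptor TANGO1 that loads procollagen into carriers, went from 10.93 to 10.03, a difference of -0.91. SEC23A, at -0.16, had the smallest difference among the 7 that passed the filter.

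Propeptide processing genes were higher in 8 of 9, with a median of 0.14, and 6 of the 9 were below the filter. Of all genes 58.6% were higher, and of those below the filter 65.6%. PCOLCE2, an enhancer of procollagen C-proteinase, went from 8.96 to 9.70, a difference of 0.74. TLL1, a proteinase of that class, went from 9.26 to 9.02.

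Fibril-binding proteins had a median of 0.15 (10 of 12 higher), and 9 were below the filter, where 65.6% of all genes were higher. SPARC, a collagen-binding glycoprotein, went from 8.40 to 10.73 and FN1, fibronectin, from 12.75 to 12.28. The empty-vector value of SPARC is below the filter, so it passed through the array on which it was high. Collagen receptors had a median of 0.09 (6 of 9 higher, beside 58.6% of all genes). DDR1, a receptor kinase for collagen, went from 10.33 to 10.73 and ITGA2, a collagen-binding integrin chain, from 12.97 to 12.86. ITGA11, an integrin chain for fibrillar collagen, was at 7.14 and 8.53, below the filter.

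Collagen breakdown genes had a median of 0.34 (7 of 9 higher, beside 58.6% of all genes). That median is the difference of MMP8, which at 4.40 and 4.74 lay in the range of olfactory receptor genes. MMP2, which digests type IV collagen, led the list at 8.72 and 12.05. MMP1 and MMP14 were lower, with differences of -0.02 and -0.04. PEPD, the peptidase for proline-containing dipeptides, was at 12.56 and 12.58, and the other 7 genes of that list were below the filter. The laminins and other partners of type IV collagen had a median of -0.06, with 9 of 13 lower, beside 40.6% of all genes. Among them NID2, a nidogen that bridges laminin and type IV collagen, went from 10.53 to 11.49, a difference of 0.96. LAMB3, a chain of an epithelial laminin, went from 9.64 to 8.23, a difference of -1.41 (2.66-fold lower). Its miR-130b value is below the filter, so it passed through the array on which it was high.

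**Figure D4:**
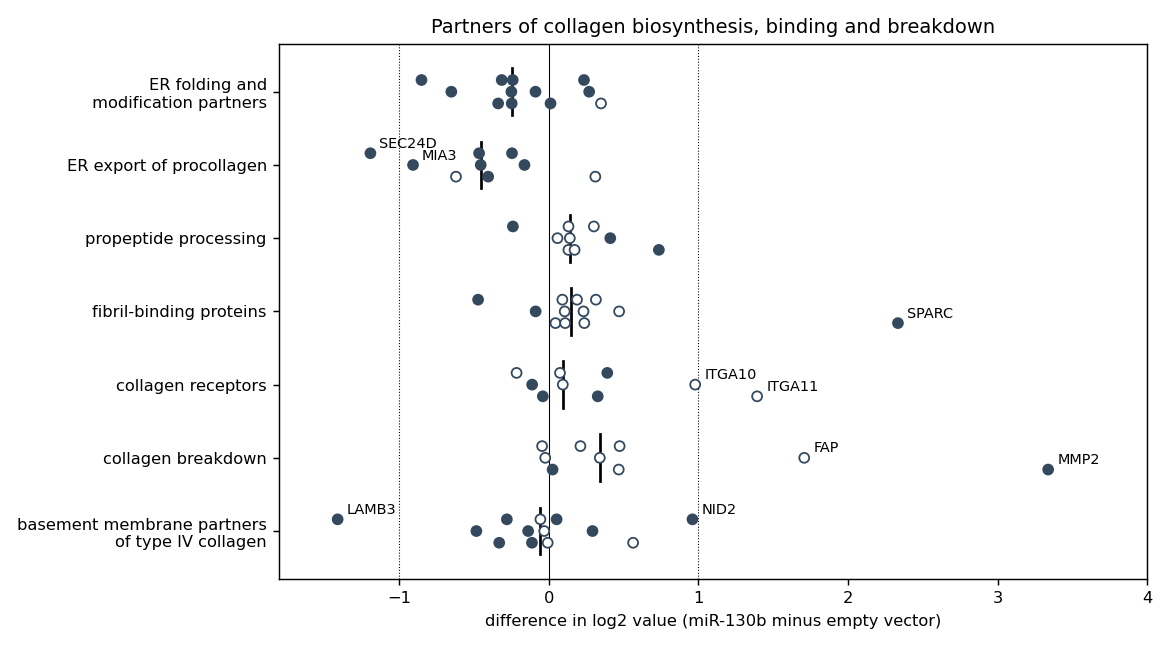
Difference in log2 value (x axis, miR-130b minus empty vector) for each measured gene of 7 lists of collagen partners (rows), filled where the mean level was at or above the filter, with list medians as bars and dotted lines at 2-fold. The list medians run from -0.45 for export of procollagen to 0.34 for collagen breakdown, where MMP2 lies far to the right. The median of the breakdown list is the value of MMP8, a gene below the filter.

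Fibrillar collagens are also made by fibroblasts, so markers of other cells were measured. Of 9 fibroblast markers 0 reached the filter, and 7 were higher on the miR-130b array, beside 65.6% of all genes below the filter. Their median difference was 0.37. Their summed level, on the log2 scale, was 9.86 on the empty-vector array and 10.21 on the miR-130b array. By more than the probe spread 5 of the 9 fibroblast markers were higher and 1 lower, beside 11.8% and 11.6% of all genes. DCN (4.46 and 4.55), PDGFRA (6.12 and 6.48) and FAP (5.26 and 6.97) lay in the range of olfactory receptor genes. THY1 was at 7.47 and 8.07, LUM at 7.21 and 7.68, and PDGFRB at 6.89 and 7.27. The lower markers were TCF21, which went from 7.29 to 6.93, and DPT, at 6.59 and 6.54. Among epithelial and A549 markers 8 of 9 passed the filter, with KRT8 at 13.38 and 13.48 and CDH1 at 12.61 and 11.49, and EPCAM was below it at 6.999 and 6.80. Of 7 endothelial markers 1 passed the filter, with summed levels of 9.74 and 9.97. Of 7 leukocyte markers 2 passed it, CD68 and CD14, with summed levels of 11.68 and 11.07. DCN, LUM and FAP stand both among these markers and in the lists of collagen partners. The part of the fibroblast markers in the collagen differences was not tested.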

How the data were processed

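The 2 samples were 1 array each of Ago2-precipitated RNA from A549 cells, labelled as whole-transcript cDNA for an Affymetrix array, per the labels. The labels' extraction text describes tissue and a small RNA kit, although the samples are a cell line. The deposited values are log2 expression values for 33297 probe sets, with medians of 7.77 on both arrays. The base was taken from their range, 1.95 to 14.17, and the software and normalization behind them were not given in the sources used here.

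Of 21214 annotated probe sets, 19460 had 1 symbol, 1754 had several (left out) and 12083 others carry no name here. Current symbols came from RefSeq by Entrez identifier (19429 matched). Probe sets of a gene were averaged. Differences, counts and medians were computed with Python 3.11.15 and pandas 2.3.3, and checked on simulated arrays. Alternatives were filters at the median and the 75th percentile, centring, quantile normalization and cyclic loess (limma 3.58.1), the brightest probe set, means, a 1.5-fold threshold and a wider basement membrane class.

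Members and lists were chosen with earlier results of these data known. Named with values were members at or above the filter or at least 2-fold apart, partner chains, and from each partner list the highest and lowest gene above the filter and those at least 2-fold apart. Other members are given by their difference, their levels or both. P4HB, ITGA11, MIA3, the motifs and the olfactory reference were chosen after values were seen. The number of arrays limits the precision.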

Additional observations from a re-analysis of the deposited data

How the results depend on the processing

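No paired analysis was possible because each group has 1 sample, and leaving out a replicate was not possible for the same reason. The class medians kept their sign under every alternative run, with ranges of 0.10 to 0.18 for all members, 0.22 to 0.46 for fibrillar chains, 0.03 to 0.45 for type IV chains, 0.10 to 0.17 for the other chains and 0.03 to 0.15 for the enzymes. With the filter at the median, the fibrillar median was 0.46 and the type IV median 0.45, over 4 chains each (COL4A5 passes through its miR-130b value). Of 24 members 20 were higher, beside 51.5% of all genes that passed. At least 2-fold lower were 0, because LOX was left out. The mean of the type IV chains was 0.34. With the filter at the 75th percentile 10 members were left, 8 of them higher, beside 51.6% of all genes that passed. Past 2-fold either way were 0. Fewer than 3 fibrillar, type IV and other chains were left, so those classes have no value there. At 1.5-fold the counts were 6 higher and 2 lower. Under centring, quantile normalization, cyclic loess and the brightest probe set, between 41 and 45 members were higher, and the 2-fold threshold was passed upward by 2 members and downward by 1. P4HA3 ranged from 1.25 to 1.34, COL4A6 from 1.11 to 1.19, and LOX from -1.43 to -1.37. P4HA1 and SERPINH1 changed sign under centring, by less than the probe spread.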
